A study of Mus musculus with 6 samples.

Results

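The complement system was followed through 32 genes of its components, regulators and receptors, chosen by symbol from a fixed list, in a table of 19613 gene rows from mouse liver. All 32 were found, and 30 passed the filter on low values, which asked for 1 FPKM or more in 3 or more libraries. They were read by role as 7 genes of the classical arm, 6 of the lectin arm, 4 of the alternative arm with its central protein, 6 of the terminal pathway, 7 regulators and 2 receptors. RNA had been sequenced from whole liver of knockout mice (KO, 3 libraries, labelled PTENα-/-) and wild-type mice (WT, 3 libraries). Both groups had received lipopolysaccharide (LPS, bacterial endotoxin) at 15 mg/kg by intraperitoneal injection and were sampled after 6 h, so the comparison asks how complement RNA in the endotoxin-exposed liver differs with the genotype, and no liver without LPS was analysed here. The labels give no age, sex or strain, no account of how the knockout was made, and no statement that the libraries stand for separate mice. The p-values therefore measure the spread between these libraries, which may be technical.

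Complement is a cascade of plasma proteases, most of them secreted by hepatocytes, that coats microbes and opens pores in their membranes. The classical arm starts when C1q binds antibody, the lectin arm when collectins or ficolins bind microbial sugars, and the alternative arm runs as an amplification loop through factor B and factor D. All arms meet at the cleavage of C3, after which C5 to C9 build the membrane attack complex, while soluble and membrane-bound regulators hold the cascade back on host cells. In the liver most components are acute-phase proteins, and Kupffer cells, the resident macrophages, add C1q and the receptors for the fragments C3a and C5a.

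Values are FPKM (fragments per kilobase of gene, relative to the depth of the library) divided by a median-of-ratios factor for each library, which ran from 1.02 to 1.40 in KO and from 0.724 to 0.988 in WT. They are called scaled FPKM, and fold changes are KO minus WT on the log2(scaled FPKM + 1) scale, which understates differences of low genes. Without that scaling the median log2 fold change of all 9218 genes tested was 0.45. Reads recovered in genes numbered 27423736 to 37553365 in KO and 20948497 to 26672381 in WT. Hepatocyte markers were present throughout, with summed levels of 20052 to 24228 scaled FPKM in KO and 22686 to 29927 in WT over 6 genes. Summed markers of stellate cells were 21.9 to 23.6 in KO and 22.8 to 30.9 in WT, of lymphocytes 1.13 to 1.45 in KO and 0.524 to 1.38 in WT, and of cholangiocytes 7.52 to 13.7 in KO and 11.6 to 16.7 in WT. The adipocyte-defining gene Adipoq stood at 0 in 5 of the libraries and at 0.0389 in KO replicate 2.

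No member passed an adjusted p of 0.05 in limma, where 1.07% of all genes tested did, 0.477% higher and 0.597% lower in KO. At an unadjusted p under 0.05 there were 2 members of 30, Cfb and Mbl2, where 14.1% of all genes had one, and limma-voom on the reads recovered from the table also called 0 members. The 95% interval of the log2 fold change lay between -1 and 1 for 28 of the 30 members. The exceptions were Mbl2, whose interval reached -1.32, and C6, whose interval reached 1.16. The members' median log2 fold change was -0.10 with 23 of 30 below 0, against -0.00498 and 50.9% for all genes tested, but only 16 of 30 lay below 0 with quantile normalization or rescaling to TPM, and 2 in the values as deposited. KO and WT libraries did not overlap for 4 members tested, Mbl2, Cfb, Vtn and Hc. All 4 were lower in KO. Among all genes tested, 20.2% had no overlap, 9.88% with KO below WT and 10.3% with KO above.

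**Figure D1:**
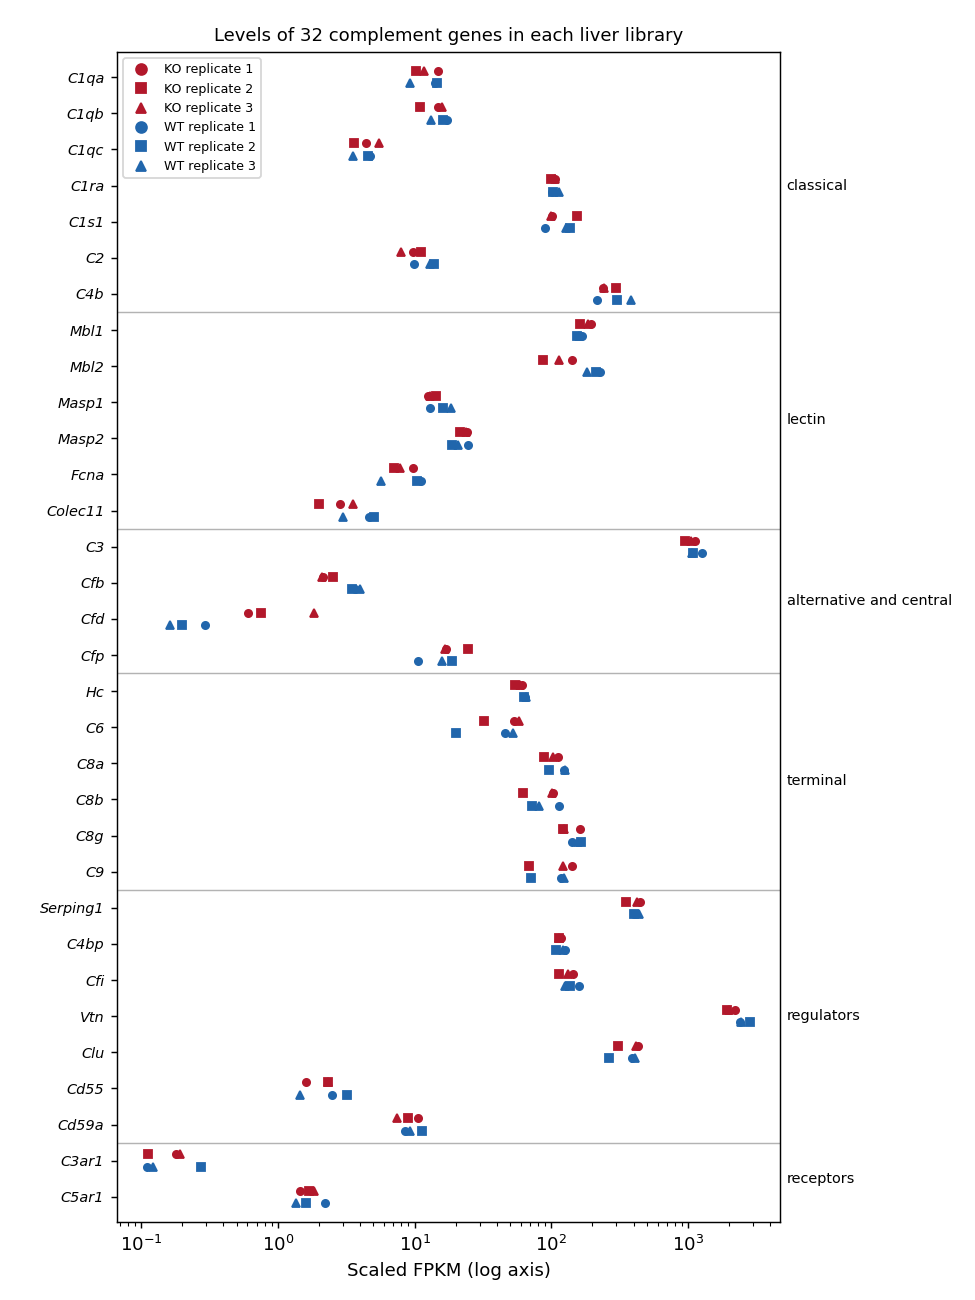
Scaled FPKM (log axis) of the 32 complement genes, grouped by role, with 1 point per library, KO red above WT blue. Levels ran from 0.111 scaled FPKM for C3ar1 to 2837 for Vtn, and the colours of most genes overlap.

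Among the 30 members tested, the largest log2 fold change was that of Mbl2, in the lectin arm. Mbl1 and Mbl2 encode the mouse mannose-binding lectins A and C, collectins that bind sugars of microbial surfaces and bring serine proteases with them. Their ratio, given below, did not overlap between the groups but did not pass after adjustment. The 250 bases upstream of each RefSeq start (GRCm38.p6) are shown here for the pair. They lie at chr19:30232678-30232927 for Mbl2 and chr14:41151206-41151455 for Mbl1, both on the plus strand and written 5′ to 3′. Whether these sequences bear on the expression values was not tested. Capitals mark the bases that are identical in the best ungapped match between the pair.
Mbl2: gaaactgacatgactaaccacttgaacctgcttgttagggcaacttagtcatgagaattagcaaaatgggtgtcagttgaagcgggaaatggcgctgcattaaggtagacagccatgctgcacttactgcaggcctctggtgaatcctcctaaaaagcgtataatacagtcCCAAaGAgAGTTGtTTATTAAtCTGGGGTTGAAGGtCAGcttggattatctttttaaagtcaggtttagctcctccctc
Mbl1: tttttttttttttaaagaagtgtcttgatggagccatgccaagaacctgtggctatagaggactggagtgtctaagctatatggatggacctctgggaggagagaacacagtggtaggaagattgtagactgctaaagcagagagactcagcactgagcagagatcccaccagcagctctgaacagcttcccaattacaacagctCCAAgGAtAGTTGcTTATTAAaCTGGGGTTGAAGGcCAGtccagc
That match covered 39 bases with 34 identical. It began 79 bases before the start in Mbl2 and 45 bases before it in Mbl1. Exact matches to 5 motifs were searched on both strands, and neither window held one. The motifs were a TATA box (TATAAA), a STAT site (TTCNNNGAA), a C/EBP site (TTGCNNAA), an HNF1 core (GTTAAT) and an NF-kB site. Near matches and longer forms of these sites, in the shared stretch or elsewhere, were not searched, so their absence is not shown. The 5 motifs occurred in 12.4%, 7.02%, 9.56%, 6.43% and 0.356% of 32851 windows of the same length, in that order. Windows were found for 24 of the 32 members. A member counted if any of its windows matched, while the percentages above count single windows, so the units differ. The HNF1 core was present in 7 of the 24, those of C1ra, C4bp, C8a, C8b, Cfp, Hc and Vtn, and each of TATAAA, TTCNNNGAA and TTGCNNAA was present in 3.

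Mbl2 stood at 141, 86.8 and 114 scaled FPKM in KO replicates 1 to 3, against 228, 214 and 184 in WT replicates 1 to 3. Every KO library lay below every WT library, and KO replicate 2 was the lowest. The means were 114 ± 27.1 in KO and 208 ± 22.5 in WT (SD, n = 3 each). The log2 fold change was -0.89 (95% interval -1.32 to -0.45) and did not pass (limma adjusted p = 0.0828). It ranged from -1.04 to -0.70 when single libraries were left out, with adjusted p from 0.122 to 0.259. As deposited it was -0.32 beside a median of 0.45 over all genes. Mbl1 stood at 196, 162 and 185 scaled FPKM in KO, against 168, 154 and 160 in WT. KO replicate 2 lay within the WT values, and the log2 fold change of 0.17 had a 95% interval of -0.13 to 0.47 (limma adjusted p = 0.626). Within each library, which makes the comparison independent of scaling, the ratio of Mbl1 to Mbl2 FPKM was 1.39, 1.87 and 1.62 in KO and 0.736, 0.723 and 0.869 in WT. Mbl1 therefore exceeded Mbl2 in each KO library and Mbl2 exceeded Mbl1 in each WT library. The mean log2 ratio differed by 1.06, with an exact two-sided permutation p = 0.1, the smallest that 20 assignments of 3 against 3 libraries allow, and 0.55 after adjustment over 11 ratios.

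**Figure D2:**
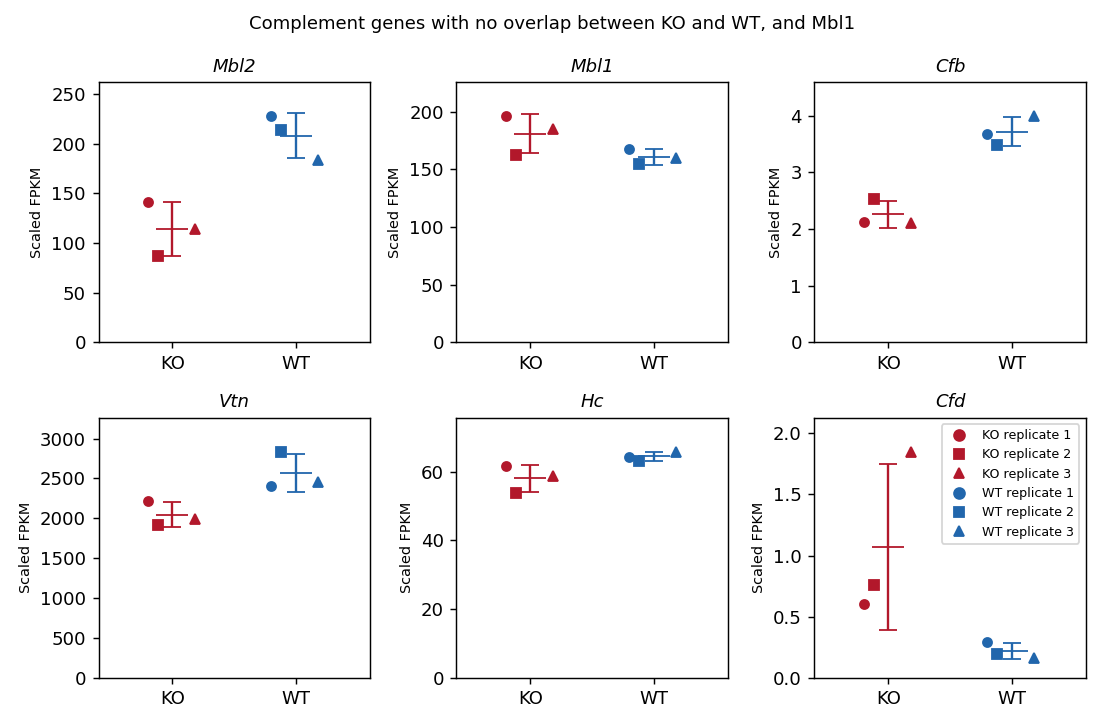
Scaled FPKM of the 5 members without overlap between the groups (Mbl2, Cfb, Vtn, Hc and Cfd) and of Mbl1, with 1 point per library, KO left of WT, and the mean with SD (n = 3) as bars. Cfd was the only one of these 5 with the KO libraries above the WT libraries, and it did not pass the filter on low values.

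The proteases of the lectin arm, which act once a lectin has bound, showed smaller differences. Masp1 averaged 13.3 ± 0.919 scaled FPKM in KO and 15.8 ± 2.66 in WT (SD, n = 3 each; log2 fold change -0.23). Masp2 averaged 23.0 ± 1.41 in KO and 21.3 ± 2.96 in WT (log2 fold change 0.11). By the annotation 54.9% of the exonic length of Masp2 is shared with Tardbp on the opposite strand, and whether the counting used strand is not stated in the labels. Fcna, a ficolin of macrophages, stood at 9.77, 7.12 and 7.79 scaled FPKM in KO, against 11.1, 10.5 and 5.73 in WT, where WT replicate 3 was the lowest of all 6. Colec11, a collectin that also binds these proteases, stood at 2.87, 2.01 and 3.57 in KO, against 4.64, 5.02 and 2.98 in WT. Its groups overlapped through WT replicate 3, and the log2 fold change of -0.45 did not pass (limma adjusted p = 0.366).

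In the alternative arm the gene nearest the threshold was Cfb, which encodes factor B, the protease subunit of the alternative C3 convertase. Cfb stood at 2.13, 2.53 and 2.11 scaled FPKM in KO, against 3.68, 3.48 and 3.99 in WT. The KO libraries lay close together and below all WT libraries. The log2 fold change was -0.54 (95% interval -0.78 to -0.29; limma adjusted p = 0.0666), and leaving out single libraries gave values from -0.59 to -0.49 with adjusted p from 0.0883 to 0.281. As deposited the value was -0.11 beside the same median of 0.45. These levels rest on 217 to 324 reads per library. By the annotation, 79.5% of the exonic length of Cfb and 46.9% of that of its neighbour C2 are shared with other genes, chiefly Gm20547, which lies on the same strand and spans both. No source at hand states how reads in shared exons were handled, which leaves the levels of Cfb and C2 uncertain. C2, the classical counterpart of factor B, had the same sign, with 9.81, 11.1 and 7.97 scaled FPKM in KO, against 9.99, 13.8 and 13.1 in WT. Its groups overlapped (log2 fold change -0.32, limma adjusted p = 0.422).

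C3, on which all arms converge, was the second most abundant member. It stood at 1124, 950 and 1055 scaled FPKM in KO, against 1258, 1089 and 1075 in WT, and its log2 difference of -0.13 had a 95% interval of -0.46 to 0.21 (limma adjusted p = 0.758). KO replicate 1 lay within the WT values. The ratio of Cfb to C3 FPKM within a library was 0.00189, 0.00266 and 0.002 in KO and 0.00292, 0.0032 and 0.00371 in WT. The groups did not overlap, and the log2 ratio differed by -0.59 (exact two-sided permutation p = 0.1, adjusted over 11 ratios 0.55). Cfp encodes properdin, which stabilises the alternative convertase and comes mainly from leukocytes. It stood at 17.1, 24.6 and 16.8 scaled FPKM in KO, against 10.6, 18.7 and 15.8 in WT, with overlap between the groups (log2 fold change 0.37, limma adjusted p = 0.508). Summed neutrophil markers, 7 genes, were 36.5 to 45.05 in KO and 33.5 to 52.6 in WT, and summed monocyte markers, 5 genes, 2.11 to 3.13 in KO and 2.37 to 3.16 in WT. Their part in the Cfp values was not tested.

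Cfd encodes factor D, also called adipsin, the protease that cuts factor B and is best known from fat tissue. It stood at 0.601, 0.758 and 1.85 scaled FPKM in KO, against 0.295, 0.198 and 0.163 in WT, and did not pass the filter. The reads behind these values were 20, 26 and 82 in KO and 8, 6 and 4 in WT, so counting error weighs on them. The KO libraries lay above the WT libraries, and the ratio of the means was 4.89, or 3.11 without KO replicate 3. In a fit with no filter on low values its log2 fold change was 0.72 and did not pass (limma adjusted p = 0.339). The summed adipocyte markers measured, 3 of 5 listed, were 2.16 to 3.01 scaled FPKM in KO and 2.43 to 2.93 in WT, nearly all of it Cidec. Adipoq was at or near 0 in every library, KO replicate 3 included. The part of fat tissue in the Cfd values was not tested.

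**Figure D3:**
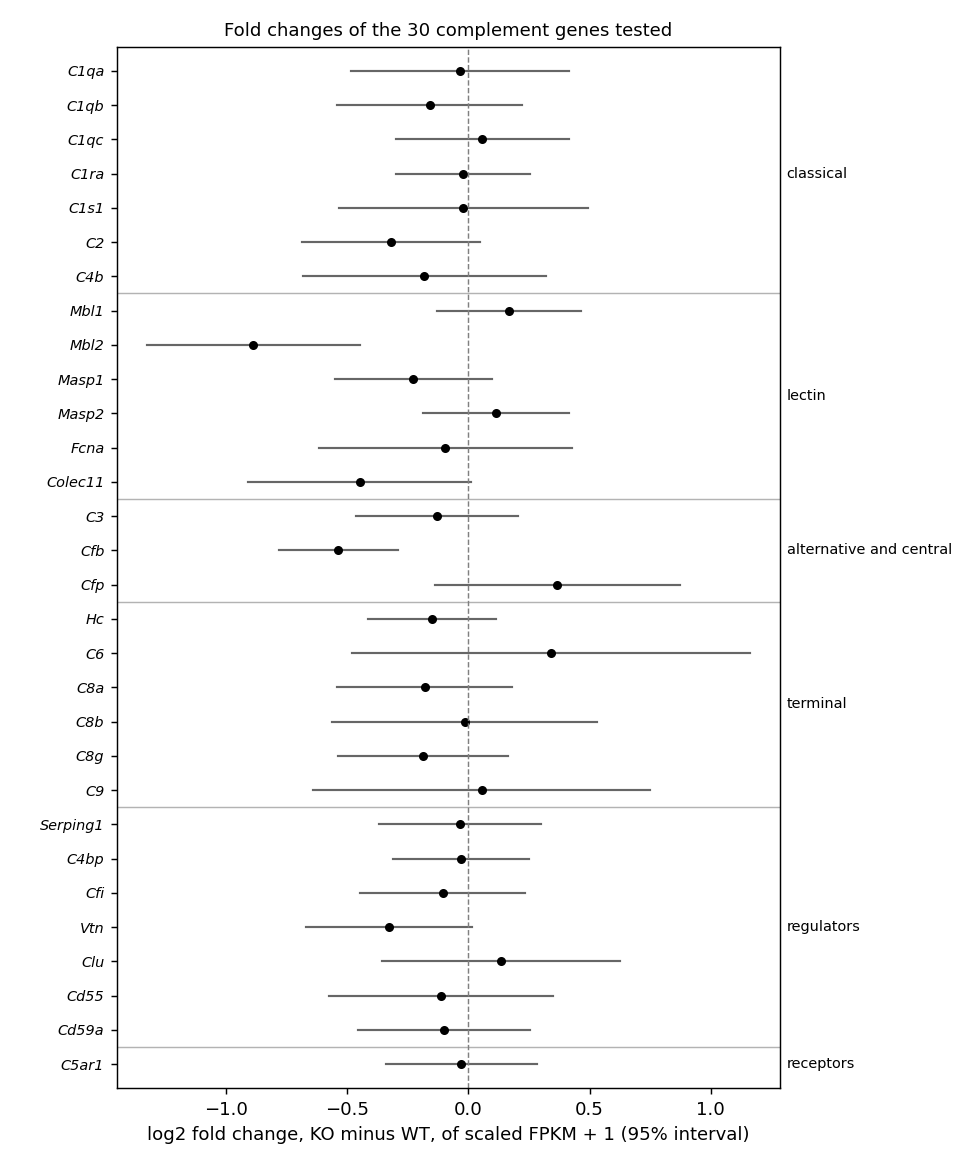
Log2 fold change, KO minus WT, of the 30 members tested with 95% intervals, grouped by role. The intervals of Mbl2 and Cfb lie below 0, and those of the other 28 include it.

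In the classical arm the 3 chains of C1q, which assemble together and in the liver come from Kupffer cells, overlapped between the genotypes. C1qa stood at 14.8, 10.2 and 11.7 scaled FPKM in KO, against 14.0, 14.7 and 9.28 in WT. C1qb stood at 14.9, 10.9 and 16.0 in KO, against 17.4, 16.2 and 13.2 in WT. C1qc was lower than the other chains in every library, with 4.42, 3.60 and 5.54 in KO, against 4.71, 4.58 and 3.55 in WT. KO replicate 2 and WT replicate 3 were the lowest of their groups for all 3 chains. The log2 fold changes were -0.03, -0.16 and 0.06 for C1qa, C1qb and C1qc (limma adjusted p = 0.96, 0.736 and 0.915). The ratios of C1qb and of C1qc to C1qa overlapped between the groups.

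The summed level of 8 Kupffer cell markers was 21.4 to 38.3 scaled FPKM in KO and 23.2 to 40.7 in WT, and KO replicate 2 and WT replicate 3 were again the lowest. In whole liver, fewer cells of a type and less RNA per cell cannot be told apart. Among the 8 markers, Timd4 stood at 0.893, 0.890 and 0.843 in KO, against 2.18, 1.72 and 1.61 in WT. Cd5l stood at 3.43, 2.72 and 4.25 in KO, against 6.99, 5.09 and 4.61 in WT. Both lay wholly below WT in KO, as did 9.88% of all genes tested, and the other 6 markers overlapped. Clec4f stood at 10.15, 6.54 and 8.18 in KO, within the WT values of 11.04, 7.25 and 6.27. Marco stood at 10.2, 8.64 and 21.03 in KO, against 14.77, 11.57 and 7.59 in WT, with KO replicate 3 the highest. Vsig4, the complement receptor of the immunoglobulin family by which Kupffer cells capture C3b-coated particles, averaged 1.33 ± 0.358 in KO and 2.44 ± 0.659 in WT (SD, n = 3 each; log2 fold change -0.55, limma adjusted p = 0.199). The part of these marker levels in the C1q values was not tested.

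The proteases of C1 and their substrate C4 are made by hepatocytes. C1ra averaged 104 ± 4.37 scaled FPKM in KO and 106 ± 7.03 in WT (SD, n = 3 each), with a log2 fold change of -0.02 (95% interval -0.30 to 0.25). C1s1 stood at 101, 154 and 99.2 in KO, against 89.9, 138 and 129 in WT. For C1s1, 18.4% of the exonic length is shared with the antisense gene Gm16567. C4b stood at 239, 299 and 241 in KO, against 215, 304 and 385 in WT, so that the WT libraries alone spanned both KO extremes. Its close paralog C4a, which in mice carries the sex-limited protein, stood at 12.4, 11.4 and 14.8 in KO, against 2.81, 5.46 and 26.9 in WT. The KO values of C4a lay within the WT range, and how reads that could match both C4 genes were handled is not stated in the labels, so their separate levels are uncertain.

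**Figure D4:**
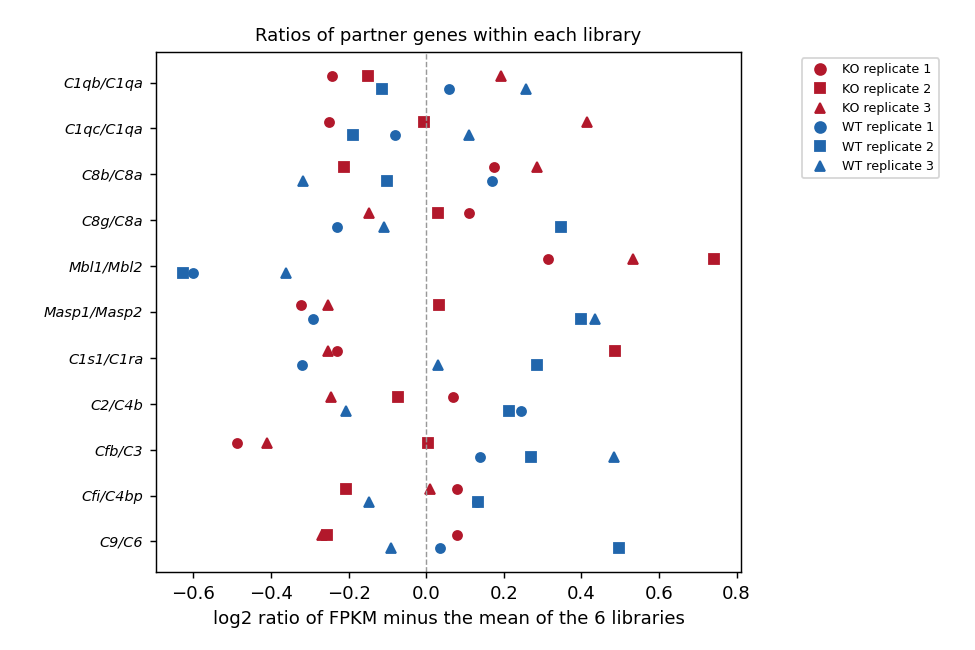
Log2 ratio of FPKM of partner genes within each library, centred on the mean of the 6 libraries, KO red above WT blue. The groups separate for Mbl1/Mbl2 and Cfb/C3 and overlap for the other 9 ratios.

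The terminal pathway supplies the proteins that assemble into the membrane pore. Hc, the mouse gene for C5, stood at 61.6, 53.9 and 58.8 scaled FPKM in KO, against 64.3, 63.1 and 65.9 in WT. The groups did not overlap, but the log2 fold change was -0.15 and did not pass (limma adjusted p = 0.624). C6 stood at 53.0, 32.3 and 58.1 in KO, against 45.7, 19.99 and 52.5 in WT, and C9, which forms the wall of the pore, at 141, 68.2 and 122 in KO, against 118, 71.1 and 124 in WT. For both genes the replicate numbered 2 was far below the others in KO and in WT. C8 is built from 3 chains. C8a averaged 101 ± 11.9 in KO and 115 ± 16.9 in WT, C8b 88.9 ± 23.1 in KO and 89.2 ± 21.7 in WT, and C8g 137 ± 23.1 in KO and 155 ± 10.6 in WT (SD, n = 3 each). The log2 fold changes of C8a, C8b and C8g were -0.18, -0.01 and -0.19, and the ratios of C8b and of C8g to C8a overlapped between the groups. C7, the remaining pore component, was near 0, at 0 to 0.0703 scaled FPKM in KO and 0.0227 to 0.153 in WT, and was not tested.

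The library numbered 2 was the lowest of its group in both KO and WT for 9 of the 30 members tested, namely C6, C8a, C8b, C9, Hc, C4bp, Clu, Mbl1 and Masp2. The same held for 18.1% of all genes tested. For C6 the highest library was 1.80 times the lowest within KO and 2.63 times the lowest within WT, and for C9 it was 2.07 times within KO and 1.75 times within WT. These 2 genes had the widest intervals of the members, -0.48 to 1.16 for C6 and -0.64 to 0.75 for C9.

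**Figure D5:**
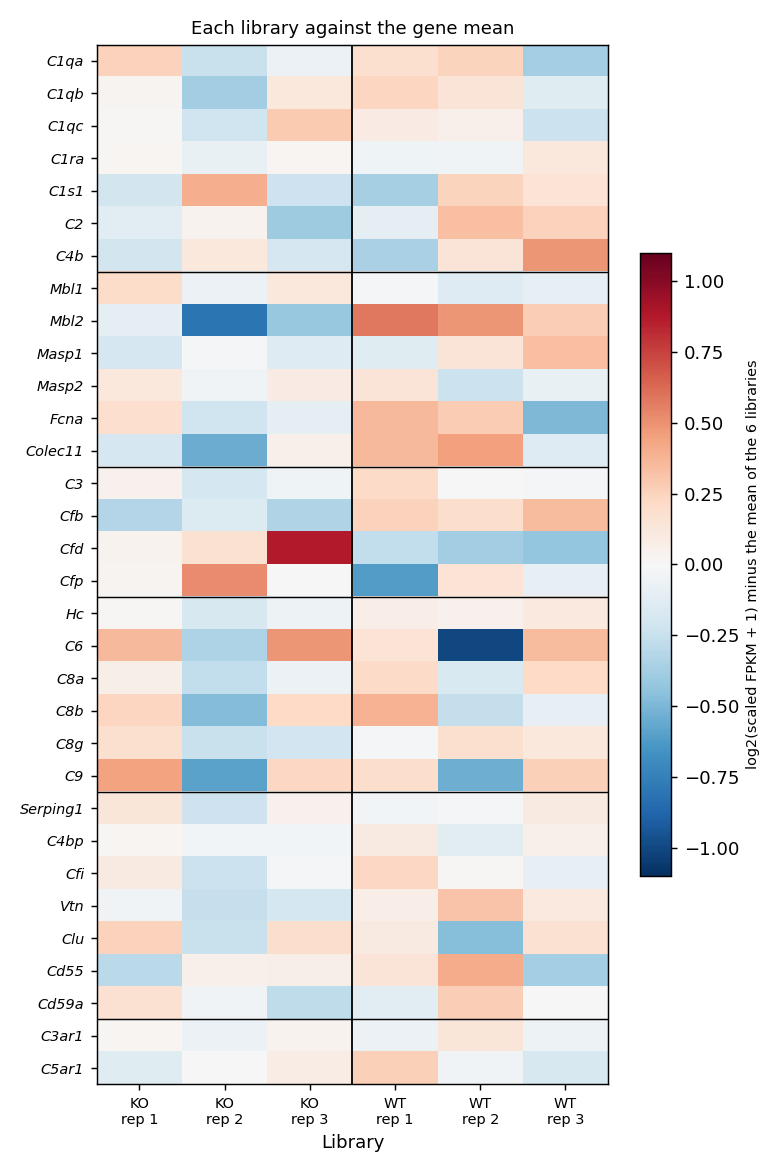
Log2(scaled FPKM + 1) of each library minus the mean of the 6 libraries, for the 32 members grouped by role, KO left of WT. C6, C8b, C9 and Clu are low in replicate 2 of both genotypes, and Mbl2 is low across KO and high across WT.

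Regulators included the most abundant member, Vtn, whose product vitronectin binds nascent pore complexes and keeps them from inserting into membranes. Vtn stood at 2223, 1917 and 1997 scaled FPKM in KO, against 2408, 2837 and 2460 in WT. All KO libraries lay below all WT libraries, and the log2 fold change of -0.33 (95% interval -0.67 to 0.02) did not pass (limma adjusted p = 0.377). Clu, whose product clusterin acts at the same step, stood at 434, 307 and 417 in KO, against 389, 264 and 409 in WT, with overlap and a log2 fold change of 0.13. Serping1, the C1 inhibitor, averaged 408 ± 51.8 in KO and 416 ± 20.6 in WT (SD, n = 3 each; log2 fold change -0.04). The pair that inactivates C4b and C3b, the cofactor C4bp and the protease factor I, overlapped between the groups. C4bp averaged 116 ± 2.48 in KO and 118 ± 9.31 in WT (log2 fold change -0.03, 95% interval -0.31 to 0.25), and Cfi 131 ± 15.4 in KO and 141 ± 16.2 in WT (log2 fold change -0.11).

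The membrane-bound regulators among the members, Cd55 and Cd59a, were low in this tissue beside the soluble ones. Cd55, which speeds the decay of convertases, stood at 1.61, 2.31 and 2.34 scaled FPKM in KO, against 2.51, 3.23 and 1.46 in WT. Cd59a, which blocks the addition of C9, stood at 10.5, 8.96 and 7.44 in KO, against 8.46, 11.4 and 9.20 in WT. Both overlapped between the groups, with log2 fold changes of -0.11 and -0.10. Of the receptors, C5ar1, which senses C5a on myeloid cells, averaged 1.65 ± 0.194 in KO and 1.72 ± 0.430 in WT (SD, n = 3 each; log2 fold change -0.03, limma adjusted p = 0.954). C3ar1, the receptor for C3a, did not pass the filter and stood at 0.112 to 0.193 in KO and 0.111 to 0.275 in WT, on 14 to 40 reads per library.

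Of 28 other genes of the pathway 27 were measured and 16 tested, and none passed an adjusted p of 0.05 in limma. At an unadjusted p under 0.05 there were 3 of the 16, Cd93, Vsig4 and C1qbp, all lower in KO, beside 14.1% of all genes tested. Cd93, an endothelial and myeloid surface lectin first described as a C1q receptor, stood at 1.08, 1.03 and 1.02 scaled FPKM in KO, against 2.13, 2.31 and 1.46 in WT, without overlap (log2 fold change -0.52, limma adjusted p = 0.126). The summed endothelial markers were 15.9 to 21.8 in KO and 17.4 to 26.7 in WT over 6 genes, and most of the sum was Lyve1. Stab2, a scavenger receptor of the liver sinusoids, stood at 2.01, 1.67 and 2.87 in KO, against 3.79, 4.41 and 3.83 in WT. Stab2 lay wholly below WT in KO, and the other 5 markers overlapped. Stab1, for example, stood at 1.87, 3.21 and 2.73 in KO, against 2.11, 3.30 and 2.30 in WT. Over all genes tested, 9.88% lay wholly below WT in KO. The part of these marker levels in the Cd93 values was not tested. Cpn1, the carboxypeptidase N subunit that removes the active end of C3a and C5a, averaged 62.6 ± 7.09 scaled FPKM in KO and 51.1 ± 4.75 in WT (SD, n = 3 each; log2 fold change 0.29, limma adjusted p = 0.397). Among the integrin chains of the complement receptors, Itgam and Itgb2 had log2 fold changes of -0.13 and -0.23, and 68.7% of the exonic length of Itgam is shared with Gm49368.

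As deposited, without scaling between libraries, limma called 6 members higher in KO and none lower, among 2648 genes higher and 55 lower, 29.3% of those tested. They were Mbl1, Masp2, Cfp, C6, C9 and Clu, with log2 fold changes of 0.74, 0.66, 0.91, 0.90, 0.62 and 0.71 beside the median of 0.45 over all genes. After scaling their log2 fold changes were 0.17, 0.11, 0.37, 0.34, 0.06 and 0.13, and none passed. Over the members as a whole, summed scaled levels were 6038, 5101 and 5576 in KO, against 6281, 6376 and 6329 in WT, most of it Vtn and C3, and the groups did not overlap. As a share of all FPKM in a library, the members made up 1.17% to 1.39% in KO and 1.29% to 1.48% in WT, and these shares overlapped.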

How the data were processed

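RNA sequencing of liver from 3 KO and 3 WT libraries gave a deposited table of FPKM values, made by the authors with 1 column per library, not pooled. The labels also name 10x Genomics without saying for what; the table has no cells and was treated as bulk RNA sequencing. The submitters' processing notes list the aligner HISAT2 2.0.5 and 2 builds, mm39 and hg38, with no role for either. Counting tool, strand setting, annotation and filters are not stated there or in the labels. Values of the targeted gene and of some other pathway genes are not reported here. Depths are given with the results.

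FPKM were divided by median-of-ratios factors from the 9196 filtered genes above 0 in every library, and log2(value + 1) was fitted with limma 3.58.1 in R 4.3.3 (genotype only, eBayes with trend, 4 residual degrees of freedom, Benjamini-Hochberg over 9218 genes). The fit was tested on simulated data. Gene lengths from GENCODE M21 turned 93.5% of 18585 rows into whole reads (within 0.001), all members included. Because reads mostly came in pairs, no counting intervals are given. Every member is named; the members, the other pathway genes and the marker lists were chosen with earlier results of these data known. Alternatives covered scaling, pseudocount, filter, variance moderation, limma-voom, the replicate number as a block, the threshold and each library left out.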

Additional observations from a re-analysis of the deposited data

How the results depend on the processing

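The count of 0 members called held with upper-quartile scaling, quantile normalization, rescaling to TPM, pseudocounts of 0.1 and 0.5, no filter, a mean of at least 5 FPKM, eBayes without trend or robust, limma-voom, factors from all rows above 0 (chosen after seeing the data) and any 1 library left out (0 to 0). A mean of at least 5 FPKM left 25 members, without Cfb. It went to 6, all higher, as deposited, and to 2, Mbl2 and Cfb, both lower, at an adjusted p under 0.1. The count over all genes, 99, went to 2703 as deposited, 33 with no filter, 61 with a mean of at least 5 FPKM and 220 at an adjusted p under 0.1. It was 14 without KO replicate 1, 64 without KO replicate 2, 35 without KO replicate 3, 41 without WT replicate 2, 46 without WT replicate 3 and 94 without WT replicate 1. With the replicate block, 2 members were called lower, Mbl2 (limma adjusted p = 0.0292) and Cfb (0.0489), and 298 genes in all. Same-numbered deviations from the group means correlated at 0.33, 0.47 and 0.018. KO replicate 1 and KO replicate 2 each correlated best with the same-numbered WT library, while KO replicate 3 correlated better with WT replicate 1 (0.36). The labels do not say whether the numbers pair the libraries, and these few correlations cannot decide it. Of the 30 members, 17 changed sign under at least 1 alternative other than the deposited values, none of them called. The 77 alternative values of the 11 ratios moved by less than the spread between replicates. The cause of the shifts was not tested. Depth limits Cfd and C3ar1 most.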
